A study of Mus musculus with 12 samples.

Results

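The T-cell receptor β chain rearrangements examined here were the productive ones that carried 8 or more N nucleotides, hereafter N-rich rearrangements. They were chosen by adding the N nucleotides that the deposited files assign to the V–D and D–J junctions. Only rearrangements classed there as in-frame without a stop codon were taken. This gave 11768 N-rich entries of 205925 productive entries over 12 libraries, or 11468 distinct nucleotide sequences of 193848. The measured values of clone size played no part in the choice.

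The libraries came from female C57BL/6 mice bearing MC38 tumors, a murine colon adenocarcinoma line, and all 4 groups had received anti-CTLA-4 and anti-PD-L1 antibodies. CD8 T cells were taken 2 weeks after the start of therapy, as CD8 TILs (tumor-infiltrating lymphocytes) and as 3 sorted splenic subsets. The subsets were CD27loCX3CR1lo, CD27hiCX3CR1lo and CX3CR1hi. The mice were 7 to 10 weeks of age when each experiment began. No untreated mice were analysed here. Each of 3 experiments, A, B and C, gave 1 library per group, with 10 mice per experiment, so a library stands for a group of mice and the 4 libraries of an experiment share their animals.
The files hold TCR sequences and no gene expression, so the sorted phenotypes could not be checked against other markers. CX3CR1 marks differentiated effector CD8 T cells, and CD27 is a costimulatory receptor that is lost as such cells mature.

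When a β chain gene is assembled, a D segment is first joined to a J segment and a V segment is then joined to that product. Nucleases trim the ends, and the enzyme terminal deoxynucleotidyl transferase adds nucleotides that have no template in the genome, called N nucleotides, at both junctions. These letters lie in CDR3, the loop of the chain that contacts the presented peptide. Rearrangements with few N nucleotides can be made repeatedly in different animals, whereas a long N stretch is a nearly random tag. In the annotation of GRCm38.p6, the assembly also named mm10, the locus Tcrb lies at chr6:40891296-41558371.

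The leading N-rich rearrangement of each CX3CR1hi and CD8 TIL library is printed first, because these clones carry the results on expansion. Each line is the 87-base window of the deposited file, 5′ to 3′, with germline letters in lower case and N nucleotides in capitals. Lower-case letters between blocks of capitals are D nucleotides, and the window ends just before the last codon of CDR3.
CX3CR1hi A: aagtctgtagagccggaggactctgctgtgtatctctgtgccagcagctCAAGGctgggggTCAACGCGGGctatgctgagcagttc
CX3CR1hi B: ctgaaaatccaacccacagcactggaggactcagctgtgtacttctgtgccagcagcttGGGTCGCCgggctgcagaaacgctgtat
CX3CR1hi C: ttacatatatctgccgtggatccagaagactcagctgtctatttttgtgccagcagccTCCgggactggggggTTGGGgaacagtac
CD8 TILs A: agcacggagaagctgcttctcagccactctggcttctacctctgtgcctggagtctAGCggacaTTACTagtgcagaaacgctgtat
CD8 TILs B: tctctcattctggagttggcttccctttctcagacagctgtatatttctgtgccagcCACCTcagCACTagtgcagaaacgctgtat
CD8 TILs C: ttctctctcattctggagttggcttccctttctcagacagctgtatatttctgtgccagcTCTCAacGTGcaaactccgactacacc

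Most N-rich rearrangements lay close to the threshold. Of the 11768 entries, 5618 had 8 N nucleotides, 2994 had 9 and 1547 had 10, and 28 had 20 or more, with a maximum of 44. Just outside the threshold, rearrangements with 7 N nucleotides accounted for 4.32% to 5.06% of the unique productive ones by library. Just inside it, those with 8 accounted for 2.28% to 3.01%.
Depth differed between libraries, from 1359 to 54639 unique productive rearrangements and from 5893 to 113660 productive templates, where a template is 1 counted genomic copy. CD8 TIL libraries were the shallowest. The 95% Wilson intervals below cover counting error only.

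Among unique productive rearrangements the N-rich share was near 6% in every group. In CD27loCX3CR1lo cells it was 5.47% in experiment A, 5.75% in B and 5.5% in C. In CD27hiCX3CR1lo cells it was 5.49%, 5.54% and 5.91% in the same order. These subsets overlapped, with means of 5.57% ± 0.153 and 5.65% ± 0.229 (SD, n = 3).
The share was 5.75%, 5.81% and 6.48% in CX3CR1hi cells and 5.81%, 6.77% and 5.75% in CD8 TILs, with means of 6.01% ± 0.405 and 6.11% ± 0.573 (SD, n = 3). The groups overlapped, since the highest CX3CR1lo value, 5.91%, lay above 4 of these 6 values, and the counting interval of the highest TIL value ran from 5.63% to 8.14%.

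**Figure D1:**
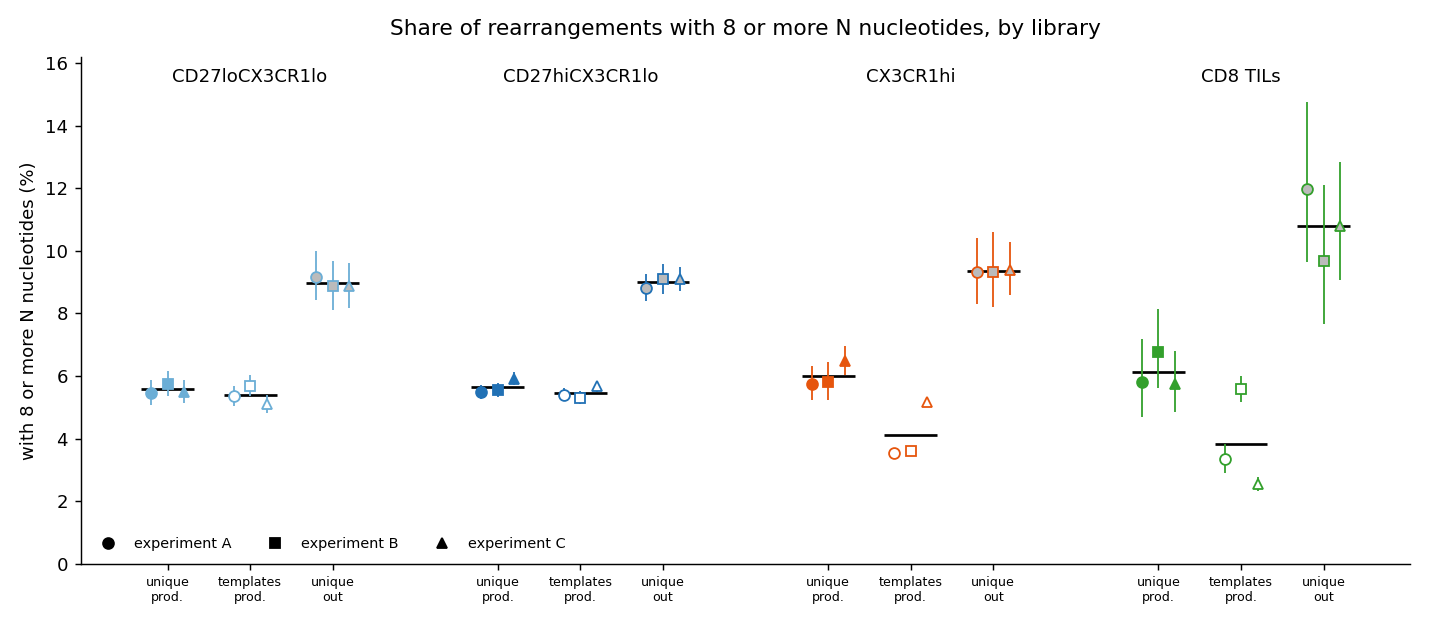
Percent of rearrangements with 8 or more N nucleotides (y axis) in each library, for unique productive rearrangements, productive templates and unique out-of-frame rearrangements (x axis), by group. Points are libraries with 95% Wilson intervals and bars are means of 3 libraries. The template points of CX3CR1hi and CD8 TILs drop to between 2.54% and 5.57%, and every out-of-frame point lies above the productive points of its library.

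The mean of the CX3CR1hi and CD8 TIL libraries exceeded that of the CX3CR1lo libraries by 0.452 percentage points ± 0.178 (SD over 3 experiments), and it did so in 3 of 3 experiments (exact permutation within experiments, two-sided p = 0.0278, adjusted p = 0.0593 over 8 tests). CX3CR1hi alone exceeded the CX3CR1lo libraries by 0.402 points, again in 3 of 3 experiments, with an exact p of 0.037, the smallest the design allows, and an adjusted p of 0.0593. Neither passed the adjustment. CD8 TILs and CX3CR1hi differed by 0.101 points ± 0.844 (SD, n = 3; exact permutation p = 0.75, where 0.25 is the smallest possible), and the CX3CR1lo subsets by -0.0769 points ± 0.311 (SD, n = 3; exact permutation p = 0.75). The difference of 0.452 also did not hold when libraries were drawn down to the shallowest depth (0.346 points, exact permutation p = 0.111). It fell to 0.106 points, with an exact permutation p of 0.463, after removal of a pair of atypical kinds of rearrangement described further on.

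Measured in templates, N-rich rearrangements held less of the CX3CR1hi and TIL repertoires than of the CX3CR1lo ones. They held 5.35%, 5.69% and 5.11% of productive templates in CD27loCX3CR1lo cells and 5.41%, 5.30% and 5.67% in CD27hiCX3CR1lo cells of experiments A, B and C. In CX3CR1hi cells they held 3.54%, 3.59% and 5.18%, and in CD8 TILs 3.34%, 5.57% and 2.54%. Of the 6 CX3CR1hi and TIL values, 4 lay far below all CX3CR1lo values, whereas CX3CR1hi of experiment C and TILs of experiment B lay within their range. Single large clones enter these shares. The largest rearrangement of TILs A held 13.59% of productive templates with 7 N nucleotides, just outside the threshold. That of CX3CR1hi B held 17.55% with 1 N nucleotide. How far such clones set the template shares was not tested.
The difference was -1.46 points ± 0.515 (SD over 3 experiments), negative in 3 of 3, with an exact permutation p of 0.037 and an adjusted p of 0.0593, which did not pass. It was -1.51 points at equal depth and between -1.46 and -1.5 points under the filters on atypical rearrangements, but -1.10 points with a threshold of 6 N nucleotides (exact permutation p = 0.509), -0.633 with one of 10 (exact permutation p = 0.0278) and -1.21 among rearrangements with at least 2 templates (exact permutation p = 0.0741).
The template share minus the unique share was between -0.395 and -0.0544 points in the CX3CR1lo libraries and between -3.21 and -1.2 points in the CX3CR1hi and TIL libraries. An N-rich rearrangement had 4.8, 5.64 and 7.94 templates on average in CX3CR1hi cells of A, B and C, where other productive rearrangements had 7.98, 9.34 and 10.1. In TILs the values were 2.49, 6.57 and 4.26 against 4.45, 8.10 and 9.97. N-rich rearrangements thus had the smaller mean clone size in 6 of 6 libraries, and large clones weigh on such means. In CX3CR1lo cells both kinds averaged between 1.24 and 1.42 templates. Rearrangements with a single template made up 60.6%, 60% and 59.2% of N-rich and 56.4%, 55.6% and 55.3% of other ones in CX3CR1hi cells. In TILs they made up 57%, 62.9% and 56% against 58.2%, 53.9% and 54.25%, so TILs A went the other way.

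Out-of-frame rearrangements are not expressed as a receptor and serve as a record of assembly before selection. N-rich forms were more frequent among them than among productive rearrangements. They made up 8.86% to 9.17% of unique out-of-frame rearrangements in CD27loCX3CR1lo, 8.81% to 9.09% in CD27hiCX3CR1lo, 9.31% to 9.39% in CX3CR1hi and 9.66% to 11.96% in CD8 TILs. The productive share was lower in 12 of 12 libraries, by 3.69 points on average ± 0.955 (SD, n = 12). An exact sign-flip permutation test gave p = 0.000488, the smallest possible over 12 libraries, and an adjusted p of 0.00195. The 12 libraries come from 3 experiments, so they are not fully independent.
The mean distributions crossed between 4 and 5 N nucleotides. Rearrangements without any N nucleotide made up 9.30% ± 0.423 of productive and 7.94% ± 0.781 of out-of-frame rearrangements, while those with 7 made up 4.72% ± 0.270 and 6.26% ± 0.376 (SD, n = 12).

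**Figure D2:**
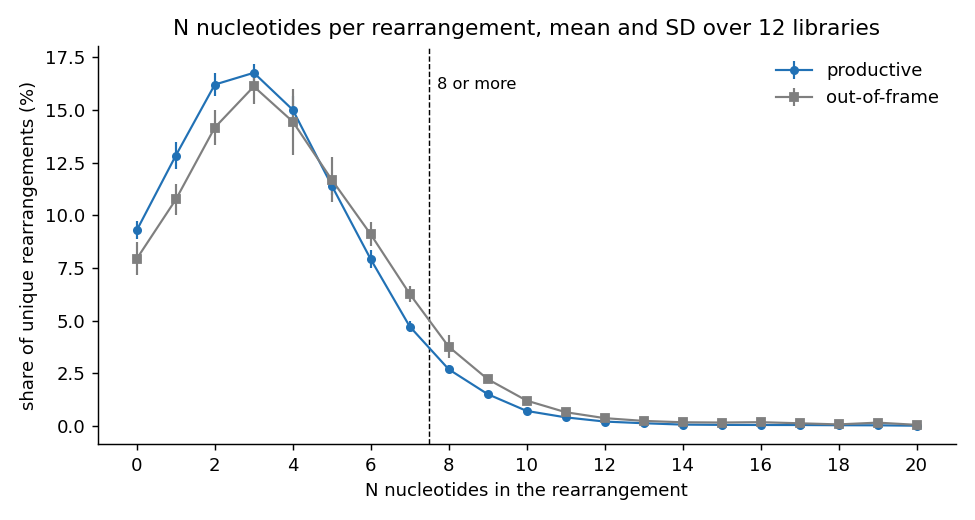
Percent of unique rearrangements (y axis) by number of N nucleotides (x axis) for productive and out-of-frame rearrangements, as mean and SD over 12 libraries. From 5 N nucleotides up to 12 the out-of-frame mean lies above the productive one, for example 3.76% against 2.68% at 8.

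N-rich rearrangements had longer CDR3 loops, but by less than the nucleotides they had gained. CDR3 was 45.7 nucleotides long on average ± 0.425 (SD, n = 12 libraries) against 41.6 ± 0.0665 in other productive rearrangements, and it was longer in 12 of 12 libraries. The library medians were 45 and 42 nucleotides throughout. Loops of 48 nucleotides (16 residues) or more made up 40.6% ± 4.16 of N-rich and 10.6% ± 0.868 of other rearrangements, and loops of 39 nucleotides (13 residues) or fewer made up 10.1% ± 2.27 and 35.5% ± 0.922 (SD, n = 12). These lengths describe the rearrangements and were not tested, since N nucleotides are counted in the length.
Without its N nucleotides the N-rich CDR3 was shorter, at 36.4 nucleotides ± 0.591 against 38.5 ± 0.0796 (SD, n = 12), in 12 of 12 libraries. Trimming of V was deeper, with 3.93 nucleotides deleted on average ± 0.526 against 2.58 ± 0.0251, and so was trimming of J, with 3.71 ± 0.2 against 2.78 ± 0.0481 (SD, n = 12), each in 12 of 12 libraries. Trimming of D differed by less. The 5′ side of D lost 2.63 nucleotides against 2.61 and the 3′ side 3.21 against 3.34, the first deeper in 7 of 12 and the second shallower in 10 of 12 libraries.

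Both junctions contributed to the long N stretches. In rearrangements with an assigned D segment, N-rich members carried 4.74 N nucleotides at V–D and 4.56 at D–J on average, against 1.64 and 1.502 in the others. The letters differed by junction. At V–D, C made up 48.04% ± 1.44 of N nucleotides and G 20.8% ± 1.06, whereas at D–J, G made up 39.2% ± 1.47 and C 18.8% ± 1.10 (SD, n = 12). Other productive rearrangements showed the same order, with 49% C and 18.4% G at V–D and 31.8% G and 17.7% C at D–J. Over both junctions G and C made up 63.5% ± 1.03 of N nucleotides in N-rich rearrangements, 58.7% ± 0.479 in other productive rearrangements and 60.3% ± 0.883 in out-of-frame rearrangements with 8 or more N nucleotides. N-rich and other productive rearrangements differed mainly at D–J, with 57.98% against 49.52% G and C. At V–D the values were 68.85% and 67.41%. The D segment could not be assigned between D1 and D2 in 23.2% ± 1.55 of N-rich and 16.8% ± 0.637 of other rearrangements, and no D at all was found in 0.098% and 2.28% (means over 12 libraries).

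V segments encode the framework and the first residues of CDR3, and J segments its end. Of 20 V genes tested, each with at least 1% of unique productive rearrangements, 7 (35%) differed in use between N-rich and other productive rearrangements, 3 higher and 4 lower. Of 12 J genes, 3 (25%) differed, 1 higher and 2 lower. The test was an exact sign-flip permutation over 12 libraries with Benjamini-Hochberg adjustment over all 32 genes. All 32 genes were matched to the RefSeq annotation.
TCRBV03-01 (Trbv3, chr6:41048394-41048824) showed the largest rise. It made up 7.75%, 7.28% and 7.86% of N-rich rearrangements in CD27loCX3CR1lo cells and 7.22%, 7.64% and 6.78% in CD27hiCX3CR1lo cells. It made up 10.9%, 11.4% and 9.84% in CX3CR1hi cells and 11.4%, 11.4% and 12.8% in TILs, in the order A, B and C. The TIL values rest on 9 of 79, 12 of 105 and 16 of 125 N-rich rearrangements. Among other productive rearrangements its use was 6.20% to 7.34% in all 12 libraries. The mean difference was 2.69 points ± 2.00 (SD, n = 12), positive in 12 of 12, with an adjusted p of 0.00313 by the exact permutation test. All 6 CX3CR1hi and TIL values lay above all 6 CX3CR1lo values.

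**Figure D3:**
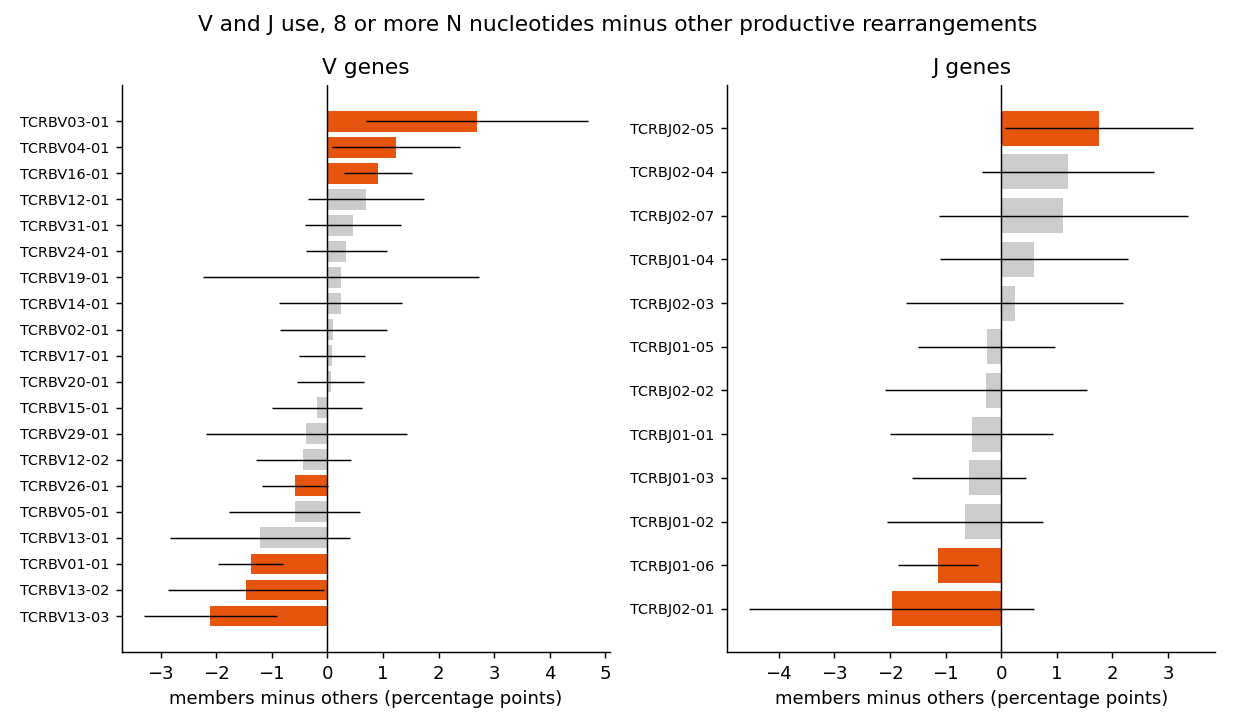
Difference in use between N-rich and other productive rearrangements in percentage points (x axis) for 20 V genes and 12 J genes (y axis). Bars are means over 12 libraries with SD, and orange bars mark the 7 V and 3 J genes with adjusted p under 0.05. TCRBV03-01 is the highest bar at 2.69 and TCRBV13-03 the lowest at -2.11.

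TCRBJ02-05 (Trbj2-5, chr6:41543453-41543501) was used by 12.2% of N-rich and 10.4% of other rearrangements, a difference of 1.76 points ± 1.69 that was positive in 12 of 12 libraries (SD, n = 12; exact permutation, adjusted p = 0.00313). TCRBV04-01 (Trbv4, chr6:41059443-41059886) and TCRBV16-01 (Trbv16, chr6:41151791-41152230) were each higher in 11 of 12 libraries, by 1.23 points ± 1.15 and 0.912 points ± 0.616 (SD, n = 12; exact permutation, adjusted p = 0.0112 and 0.00781).
The genes used less included 2 of the TCRBV13 family. TCRBV13-03 (Trbv13-3, chr6:41130147-41130585) fell in 12 of 12 libraries, to 4.45% of N-rich from 6.55% of other rearrangements (-2.11 points ± 1.19, SD, n = 12; exact permutation, adjusted p = 0.00313). In TILs it was 1.27%, 1.90% and 3.20% of N-rich rearrangements, which are 1 of 79, 2 of 105 and 4 of 125, against 5.00%, 5.95% and 6.89% of other rearrangements. TCRBV13-02 (Trbv13-2, chr6:41121396-41121832) was lower by 1.46 points in 9 of 12 libraries (adjusted p = 0.026), and TCRBV13-01 lay 1.22 points lower with an adjusted p of 0.0805, both by the exact permutation test. TCRBV01-01 (Trbv1, chr6:40891296-40891885) was lower by 1.38 points ± 0.584 in 12 of 12 libraries (SD, n = 12; exact permutation, adjusted p = 0.00313). TCRBJ02-01 (Trbj2-1, chr6:41542754-41542803) was lower by 1.97 points ± 2.56 in 10 of 12 (SD, n = 12; exact permutation, adjusted p = 0.0391). TCRBV26-01 and TCRBJ01-06 also passed, at -0.585 and -1.13 points.
Among out-of-frame rearrangements split at the same 8 N nucleotides, TCRBV03-01 lay on the other side, with 5.27% of N-rich and 6.06% of other rearrangements, and it was lower in 10 of 12 libraries. TCRBV04-01 was lower there as well, by -0.811 points in 10 of 12. TCRBJ02-05, TCRBV16-01 and TCRBV13-03 differed there by 0.065, -0.0959 and -0.114 points. The other genes named lay on the same side as in productive rearrangements, TCRBJ02-01 at -1.37 points (lower in 9 of 12), TCRBV01-01 at -0.826 (7 of 12) and TCRBV13-02 at -0.489 (8 of 12). The out-of-frame differences were not tested. The calls rest on counting the 12 libraries as units, since with 3 experiments as units the exact test cannot pass and called no gene. Without experiment A or without C no V or J gene was called either, with TCRBV03-01 at an adjusted p of 0.05 (exact permutation over 8 libraries), whereas without B 6 V and 2 J genes were called and TCRBV03-01 had an adjusted p of 0.0312. Weighted by templates, TCRBJ02-05 and TCRBV13-03 changed sign, to -0.441 and 3.79 points.

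N-rich rearrangements were almost never found in more than 1 experiment. Of 11468 distinct ones, 2 occurred in 2 experiments and none in 3, whereas of 182380 other productive rearrangements 4401 occurred in 2 and 503 in 3. The shared percentage declined with the N count from 11.6% without N nucleotides to 2.94% at 2, 0.749% at 4, 0.152% at 6 and 0.0313% (3 of 9587) at 7. It was 0.0366% (2 of 5469) at 8, and none was shared at 9 or more. By library, 5.26% to 8.65% of other rearrangements recurred in another experiment, against none of the N-rich ones in 10 libraries, 0.487% in CX3CR1hi A and 0.27% in CX3CR1hi C. In CD8 TILs a count of 0 allows a share of up to 3.80%, 2.86% and 2.40% in A, B and C. The difference was -6.62 points ± 1.06 (SD, n = 12), negative in 12 of 12 libraries (exact permutation, p = 0.000488, adjusted p = 0.00195). A shared sequence counts in every library and experiment that holds it, so the 12 differences are not independent, even between experiments. When only the CDR3 amino acid sequence had to match, 4.95% ± 1.81 of N-rich and 39.6% ± 1.92 of other rearrangements recurred (SD, n = 12). Here a match to any productive rearrangement of another experiment counted, N-rich or not. The N-rich values were 3.46% to 3.99% in the CX3CR1lo libraries. They were 7.54%, 3.69% and 8.36% in CX3CR1hi cells and 5.06%, 5.71% and 7.2% in TILs of A, B and C. These values include entries with the same CDR3 nucleotides as a larger clone of another V gene, described below. Such entries lay mostly in CX3CR1hi cells, and their part in these values was not tested.

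Both N-rich rearrangements found in 2 experiments occurred in CX3CR1hi A and CX3CR1hi C and in no other library. One had 1 and 4 templates and was assigned to TCRBV03-01, and the other had 1 and 2 templates and was assigned to TCRBV13-01. They are printed with a far larger rearrangement of TCRBV12-01 and TCRBJ02-05 (Trbv12-1, chr6:41113567-41114067) that carries only 2 N nucleotides and is not N-rich.
TCRBV03-01 form: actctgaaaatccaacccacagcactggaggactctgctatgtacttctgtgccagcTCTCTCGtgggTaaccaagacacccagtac
TCRBV13-01 form: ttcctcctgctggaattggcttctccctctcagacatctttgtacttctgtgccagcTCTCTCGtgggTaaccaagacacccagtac
TCRBV12-01 form: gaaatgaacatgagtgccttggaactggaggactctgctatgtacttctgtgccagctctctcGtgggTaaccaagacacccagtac
All 39 CDR3 nucleotides within the window were identical in the 3 sequences. The identity ran for 64 bases from the 3′ end in the first and for 47 in the second, that is 25 and 8 bases upstream of CDR3, before the V sequences parted. The TCRBV12-01 form had no V deletion, against 8 and 7 deleted V nucleotides in the other forms. It had 1370 templates (2.46%) in CX3CR1hi A, 87 (0.171%) in B and 1733 (1.53%) in C, and 158 (2.68%) in TILs of A and 354 (1.69%) in TILs of C.

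The same arrangement was therefore counted in all libraries. An N-rich rearrangement was marked when its CDR3 nucleotides equalled those of a rearrangement of another V gene with at least 10 times its templates in the same library. There were 84 such entries, of which 24 lay in CX3CR1hi A, 12 in CX3CR1hi B, 46 in CX3CR1hi C and 2 in TILs of B, and none in the other 8 libraries. They made up 5.84%, 3.69% and 6.20% of N-rich rearrangements in the CX3CR1hi libraries, against 1.37%, 1.08% and 2.08% of other productive rearrangements. None had more than 4 templates and 72 had 1. TCRBV12-01 was assigned to 32 of them and TCRBV03-01 to 17. Such a match needs a clone at least 10 times larger in the same library, and the largest rearrangement held 0.0377% to 0.916% of templates in the CX3CR1lo libraries, 4.22% to 17.6% in CX3CR1hi and 7.43% to 13.6% in TILs. What gives rise to these sequences was not tested. Without them and their counterparts among other rearrangements, the CX3CR1hi excess in the unique N-rich share was 0.186 points (exact permutation p = 0.296).

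A second atypical kind stood out by the first residue of CDR3. A productive CDR3 begins at a conserved cysteine near the end of V, but the deposited CDR3 did not begin with cysteine in 103 N-rich entries, or 0.875%, against 205 of 194157 other productive entries (0.106%). They made up 0.986%, 1.08% and 0.587% of N-rich rearrangements in CD27loCX3CR1lo cells and 0.47%, 0.332% and 0.372% in CD27hiCX3CR1lo cells. The share was 3.16%, 2.15% and 1.75% in CX3CR1hi cells and 7.59%, 8.57% and 4% in TILs, in the order A, B and C. The groups did not overlap, but the TIL values rest on 6, 9 and 5 rearrangements. Among other productive rearrangements the share was 0.0692% to 0.152% in all libraries.
One form per TIL library is printed, chosen after the values were seen, with the letters that the files assign as N nucleotides in capitals. In the form of TILs B no N nucleotide was assigned between V and D, so D letters follow V in lower case.
CD8 TILs A without cysteine: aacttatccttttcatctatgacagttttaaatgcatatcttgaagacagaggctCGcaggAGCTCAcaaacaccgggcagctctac
CD8 TILs B without cysteine: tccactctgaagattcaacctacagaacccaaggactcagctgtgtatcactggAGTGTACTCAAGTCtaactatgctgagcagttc
CD8 TILs C without cysteine: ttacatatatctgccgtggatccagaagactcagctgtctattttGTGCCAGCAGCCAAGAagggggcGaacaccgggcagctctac
In the form of TILs C most of the first block of capitals repeats letters at the germline end of TCRBV05-01, which stand in lower case in the CX3CR1hi C clone printed above. Assigned N nucleotides were therefore searched for a run of 8 bases found in the last 30 germline bases of the same V gene, taken from untrimmed rearrangements. Among members without the cysteine that had an N block of 8 or more bases and a known germline end, 15 of 57 held such a run, against 4 of 2419 other N-rich rearrangements. None of the 103 had more than 2 templates and 89 had 1. In 82 of them 17 to 22 V nucleotides were counted as deleted, most often 19, which occurred in 43. In 77 no J nucleotide was deleted, or 74.8% against 22.6% of other N-rich rearrangements. TCRBV27-01 (Trbv27, chr6:41258121-41258579), which the RefSeq annotation lists as a pseudogene, as it does TCRBV29-01, was assigned to 19 of them and to no other N-rich rearrangement. Of the 135 N-rich entries with 16 or more N nucleotides, 52 lacked the cysteine.

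**Figure D4:**
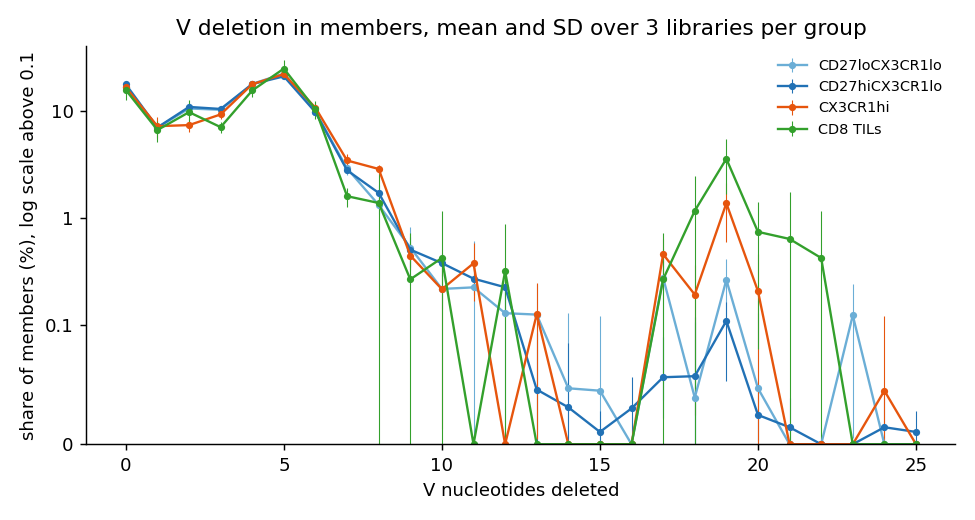
Percent of N-rich rearrangements (y axis, log scale above 0.1) by number of V nucleotides deleted (x axis), as mean and SD over 3 libraries per group. All groups share a main peak at 5 nucleotides or fewer, and at 19 a second peak reaches 3.55% in CD8 TILs, 1.37% in CX3CR1hi, 0.264% in CD27loCX3CR1lo and 0.109% in CD27hiCX3CR1lo.

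A V deletion of 10 or more nucleotides was found in 1.19% to 1.89% of N-rich rearrangements of the CX3CR1lo libraries, in 3.89%, 3.08% and 2.56% of those of CX3CR1hi and in 8.86%, 10.5% and 4% of those of TILs. The out-of-frame rearrangements with 8 or more N nucleotides showed the same order with higher values, 2.55% to 8.35% in CX3CR1lo, 6.81% to 13.6% in CX3CR1hi and 21.2% to 29.3% in TIL libraries. With such deletions left out of both classes, the productive share of N-rich rearrangements was still lower than the out-of-frame share in the mean, by 2.88 points (exact permutation p = 0.000488). What produces the sequences without the cysteine was not tested. TILs, with the highest share of them, were also the shallowest libraries.

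The question of which clones expanded was addressed in the CX3CR1hi and TIL libraries, where a rearrangement counted as expanded at 0.1% or more of productive templates. This share stood for far fewer templates in TILs A, with 5893 productive templates, than in CX3CR1hi C, with 113660. Expanded N-rich rearrangements numbered 8, 6 and 10 of 143, 126 and 144 in CX3CR1hi cells of A, B and C and 7, 6 and 5 of 115, 128 and 131 in TILs. That is 5.59%, 4.76% and 6.94% of expanded CX3CR1hi and 6.09%, 4.69% and 3.82% of expanded TIL rearrangements. Among the rearrangements below 0.1%, N-rich ones made up 5.75%, 5.84% and 6.47% in CX3CR1hi cells and 5.79%, 6.96% and 5.88% in TILs. The difference was -0.799 points ± 1.19 (SD, n = 6), negative in 4 of 6 libraries, and did not pass (exact sign-flip permutation p = 0.219, adjusted p = 0.292). It was -0.361 points without experiment B and -1.23 without A.
At 0.5% of productive templates N-rich rearrangements numbered 0 of 29, 0 of 26 and 1 of 30 in CX3CR1hi cells and 1 of 22, 2 of 37 and 1 of 36 in TILs. Their share of all unique productive rearrangements was 5.75% to 6.77% in these 6 libraries, so only small counts could arise at that size. With that definition the difference was -3.41 points (exact permutation p = 0.0312, the smallest possible over 6 libraries, before adjustment). The 6 libraries come from 3 experiments and share clones within an experiment, so they are not fully independent. None of the 42 expanded N-rich entries lacked the cysteine. They held 41.6% to 72.8% of all N-rich templates in the 6 libraries. A large share follows in part from choosing entries by their templates, and it was not compared with that of other expanded rearrangements.

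**Figure D5:**
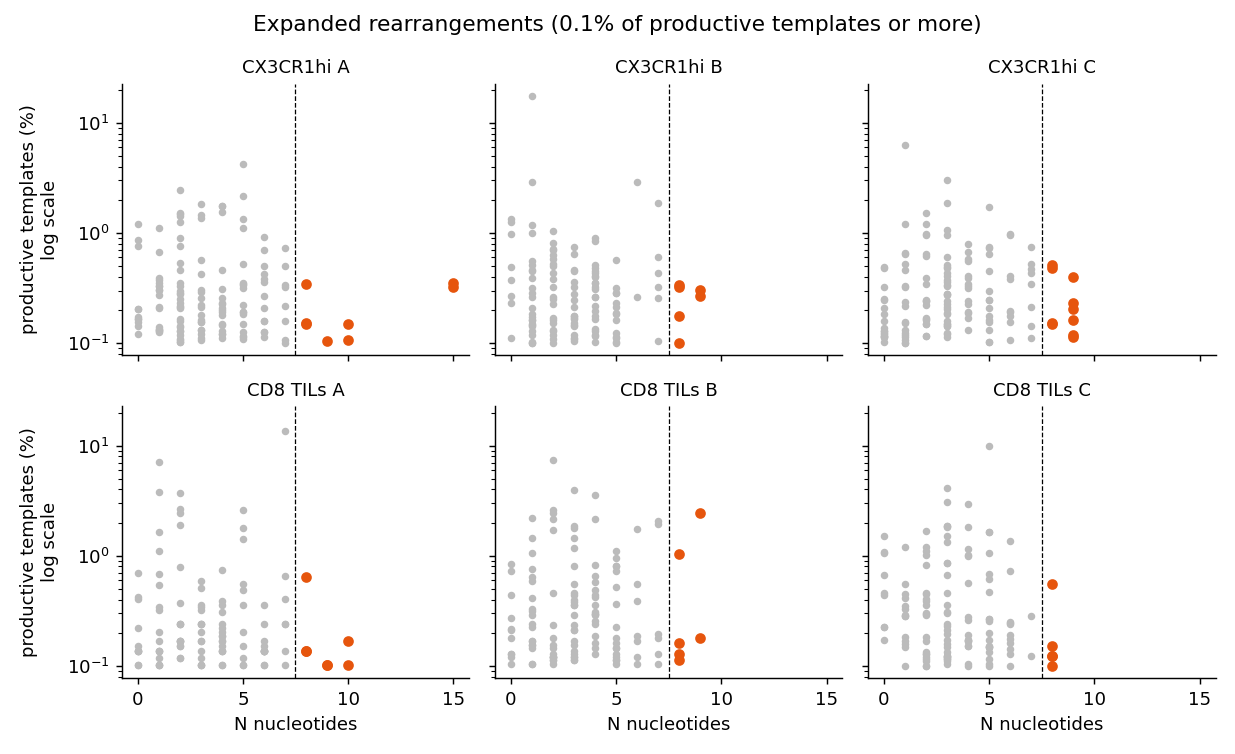
Percent of productive templates (y axis, log scale) against number of N nucleotides (x axis) for every rearrangement at 0.1% or more in the CX3CR1hi and CD8 TIL libraries of experiments A, B and C. Orange points right of the dashed line have 8 or more N nucleotides, and the highest of them is 2.44% in CD8 TILs B.

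The largest N-rich clones of CX3CR1hi cells held 0.302% to 0.51% of productive templates. In experiment A the clone printed first, of TCRBV04-01, TCRBD02-01 and TCRBJ02-01 with 15 N nucleotides, had 195 templates in CX3CR1hi cells (0.35%, interval 0.304% to 0.402%). It had 1 template in CD27loCX3CR1lo and 3 in CD27hiCX3CR1lo cells and none in TILs. The next clones there had 190 templates (TCRBV29-01, TCRBJ02-07, 8 N nucleotides) and 182 templates (TCRBV03-01, TCRBJ01-05, 15 N nucleotides), and neither was seen in the TILs of that experiment.
In experiment B all of the 3 largest were also found in TILs. The first, of TCRBV03-01 and TCRBJ02-03, had 172 templates (0.337%) in CX3CR1hi cells and 16 (0.129%) in TILs, with 8 N nucleotides all assigned to V–D. The second, of TCRBV04-01 and TCRBJ02-07, had 166 and 128 templates.
The third was the largest N-rich clone of any TIL library. It joined TCRBV13-03 to TCRBJ02-03 with 9 N nucleotides and had 302 templates in TILs of B (2.44%, interval 2.18% to 2.73%), ranking 6 among all productive rearrangements of that library, 154 in CX3CR1hi cells (0.302%), 3 in CD27hiCX3CR1lo and none in CD27loCX3CR1lo cells.
In experiment C the leading clone of TCRBV05-01 and TCRBJ02-07 had 580 templates in CX3CR1hi cells (0.51%, interval 0.471% to 0.553%), 26 in TILs (0.124%) and 2 in each CX3CR1lo subset. It was followed by 548 templates of TCRBV03-01 with TCRBJ01-03 and 456 of TCRBV24-01 with TCRBJ02-07, of which the first was found in TILs with 9 templates and the second was not. The TCRBV24-01 clone was classed as productive, but its V letters hold the stop codon tag in frame shortly upstream of CDR3. Other TCRBV24-01 rearrangements were not searched for such a codon. A TCRBV03-01 clone was thus among the leading 3 N-rich clones of CX3CR1hi cells in each experiment. Among all productive rearrangements of their libraries these clones ranked 50 in A, 45 in B and 35 in C.

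In TILs the leading clone of experiment A, of TCRBV31-01 and TCRBJ02-03, had 38 templates (0.645%, interval 0.47% to 0.884%), with 23 in CX3CR1hi cells (0.0412%) and 4 in CD27loCX3CR1lo cells. The next had 10 and 8 templates, with intervals of 0.0922% to 0.312% and 0.0688% to 0.268% that overlap widely. In experiment C the leading clone joined TCRBV13-03 to TCRBJ01-02 and had 117 templates in TILs (0.558%, interval 0.466% to 0.669%), 59 in CX3CR1hi cells (0.0519%) and 2 in CD27loCX3CR1lo cells. The next had 32 templates (TCRBV19-01, TCRBJ02-01) and 26 (TCRBV17-01, TCRBJ02-05), and both were found in CX3CR1hi cells with 30 and 36 templates. None of the leading clones of a library was found in another experiment.

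N-rich rearrangements also recurred between CX3CR1hi cells and TILs of the same experiment. Of the N-rich rearrangements in CX3CR1hi cells, 16 of 411 (3.89%), 27 of 325 (8.31%) and 61 of 742 (8.22%) were also found in TILs of A, B and C, against 3.86%, 10.7% and 8.85% of other rearrangements. Of those in TILs, 20.3%, 25.7% and 48.8% were found in CX3CR1hi cells, against 20.3%, 38.96% and 46.3% of others. Counted by rearrangement, those of B were lower for N-rich rearrangements in both directions. The shared N-rich clones held 39.1%, 83.6% and 82.3% of N-rich TIL templates, and shared other clones held 64.8%, 85.7% and 85.9% of other TIL templates. In CX3CR1hi cells the shared clones held 5.53%, 44.8% and 55.7% of N-rich templates and 23.1%, 54.4% and 71.7% of other templates. By templates the N-rich value was thus the lower one in 3 of 3 experiments in both directions. These values are a description, and the differences between the shares were not tested.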

How the data were processed

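T-cell receptor β chain rearrangements were sequenced by the authors from genomic DNA with the immunoSEQ survey-level assay, a multiplex PCR of 2 rounds read on an Illumina sequencer. The version of the assay's pipeline is not given in the sources used here, and mm10 is the build in the submitters' processing notes. The deposited files give, per rearrangement, template counts without molecular identifiers, a fraction of the library, which was not used, and other whole numbers, namely CDR3 length, deletions, N insertions and positions, in nucleotides, as assigned by the authors' pipeline.

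Productive entries with 8 or more N nucleotides over both junctions were taken as members. Members, gene lists and tests were chosen with earlier results of these data known. Shares were computed per library, with Wilson 95% intervals and a floor of 3 counts for a share of 0. Libraries were grouped by the sorted population in their labels, and experiment, meaning the same mice, was the replicate block. The deviations of libraries of 1 experiment correlated at -0.0239 (unique share) and -0.175 (template share). Exact permutation tests were two-sided, over 216, 27 or 8 arrangements within experiments and 4096 or 64 sign flips within libraries, with Benjamini-Hochberg adjustment over 8 single-value tests, over 32 V and J genes and, chosen after the values were seen, over 12 tests of group differences. P-values measure the spread between these libraries only.

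V and J genes with at least 1% of unique rearrangements were tested. The 4 largest rises and 4 largest falls past 0.05 were named, as were the 3 members with most templates in each CX3CR1hi and TIL library and the members found in most experiments. Other genes named were chosen after their values were seen. Gene positions came from the RefSeq annotation of GRCm38.p6. Alternatives were thresholds of 6 and 10 N nucleotides, a named D gene, at least 2 templates, an equal depth of 5893 templates (mean of 20 draws), no block, each experiment left out, experiments as units, templates as weights, expansion at 0.5% or as the 100 most abundant, sharing by amino acid sequence or within a group, and stop codons with out-of-frame. The search for germline V letters among assigned N nucleotides was a description chosen after seeing the data. Filters on cysteine, V deletion, neighbours 1 base apart and CDR3 shared with a larger clone of another V gene were added after seeing the data. Python 3.11.15, numpy 2.4.6, pandas 2.3.3, scipy 1.17.1 and matplotlib 3.10.9 were used, and the scripts were checked on simulated data.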

Additional observations from a re-analysis of the deposited data

Results flagged for a closer look

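Some differences between N-rich and other productive rearrangements were larger or smaller in the CX3CR1hi and CD8 TIL libraries than in the CX3CR1lo libraries. They were among 12 such differences tested after the values were seen, each by exact permutation within experiments, and these 4 had p = 0.00926, the smallest possible, and an adjusted p of 0.0278.

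The excess of TCRBV03-01 among N-rich rearrangements was 0.899 points ± 0.342 in the CX3CR1lo and 4.48 points ± 1.00 in the CX3CR1hi and TIL libraries (SD, n = 6), a difference of 3.58 points. Without rearrangements lacking the cysteine and those sharing CDR3 nucleotides with a larger clone of another V gene it was 3.52 points (exact permutation p = 0.00926, adjusted p = 0.111).
The excess in V deletion was 0.955 and 1.75 nucleotides, a difference of 0.795, which fell to 0.0819 without both kinds (exact permutation p = 0.333).
The excess in CDR3 length was 4.43 and 3.74 nucleotides, a difference of -0.681, and -0.255 without both kinds (exact permutation p = 0.25).
The CDR3 length without N nucleotides differed from that of other rearrangements by -1.57 and -2.62 nucleotides, a difference of -1.05, and -0.342 without both kinds (exact permutation p = 0.111).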

How the results depend on the processing

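The lower N-rich share of productive than of out-of-frame rearrangements and the rarer sharing between experiments kept their sign and p under 0.05 under every alternative run, but not their size. The first, -3.69 points, was -6.42 at 6 and -1.91 at 10 N nucleotides, and the second, -6.62 points, was -4.10 to -3.68 with an experiment left out, -2.37 for the same group only and -34.6 by amino acid sequence. The rest depended on settings, and the causes were not tested. The unique-share difference of 0.452 points was 0.349 with a named D gene (exact permutation p = 0.0926), 0.346 at equal depth (p = 0.111, exact), 0.223 with a leading cysteine only, 0.337 without CDR3 sequences of a larger clone of another V gene, 0.106 without both kinds, and 0.354 to 0.529 with an experiment left out. For CX3CR1hi against CX3CR1lo the 0.402 points became 0.398 at 2 or more templates, 0.242 at equal depth, 0.304, 0.186 and 0.0859 under the same filters, and 0.217 to 0.519 with an experiment left out. Without the replicate block its exact permutation p was 0.0595 for the same 0.402, and the block changed no other call. The template difference of -1.46 was -1.10 at 6 N nucleotides (exact permutation p = 0.509), -0.633 at 10, -1.21 at 2 or more templates and -1.73 to -1.22 with an experiment left out. TILs minus CX3CR1hi turned to -0.129 at 6 N nucleotides and -0.162 with a leading cysteine, and ranged from -0.329 to 0.514 with an experiment left out, and CD27loCX3CR1lo minus CD27hiCX3CR1lo from -0.218 to 0.0900. The expansion difference of -0.799 was -3.41 at 0.5%, -1.62 for the 100 most abundant (exact permutation p = 0.0625), -1.98 at 6 N nucleotides, -0.336 at 2 or more templates, -0.524 and -0.403 with a leading cysteine and without both kinds, and -1.23 to -0.361 with an experiment left out. The 7 V genes called became 12 at 6 and 4 at 10 N nucleotides, 3 at 2 or more templates, 4 by templates, 0 with experiments as units and 0 to 6 with an experiment left out. The 3 J genes became 7 at 6 and 1 at 10 N nucleotides, 7 with a named D gene, 0 at 2 or more templates, 0 with experiments as units and 0 to 2 with an experiment left out. By templates TCRBJ02-05 turned to -0.441 and TCRBV13-03 to 3.79 points. The CDR3 length difference was 3.42 nucleotides at 6 and 4.68 at 10 N nucleotides, and that in V deletion 2.38 at 10. Depth limits TILs most, with 79 to 125 N-rich rearrangements per library.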
